A study of Mus musculus with 6 samples.

Results

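The 10 genes described here, Mdm2, Ccng1, Trp53inp1, Sesn1, Ppm1d, Zmat3, Phlda3, Perp, Fas and Btg2, are target genes of the transcription factor p53. Most are known mainly for roles in feedback, growth control and metabolism, but Fas is a death receptor and Perp also acts in cell death. Their probes were found by gene symbol, through the RefSeq accession of each array probe. All 10 were on the array, with 19 probes of 41174 in all, and all 19 probes passed the filter on dim probes. The tested cells were primary astrocytes from the cerebral cortex of C57BL/6 mice at embryonic day 18, transfected with 80 nM of precursors of the miR-29 family, a, b and c in the proportion 1 to 2 to 1 (3 arrays). The control cells were the same purchased astrocytes transfected with 80 nM of a negative control precursor (3 arrays). Both groups were transfected 3 weeks after plating and harvested 48 h later, and carried no other named allele or agent. The arrays of a group are described as extraction replicates, and separate cultures are not mentioned, so p-values speak for the spread among these extractions, which may be technical. In such bulk cultures, fewer cells of a type and less RNA per cell cannot be told apart.

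The protein p53, encoded by Trp53, is stabilised after DNA damage and other stresses and switches on genes that halt the cell cycle, repair DNA, adjust metabolism or kill the cell. Several of its targets feed back on it: Mdm2 is the ubiquitin ligase that marks p53 for degradation, and Ppm1d is a phosphatase that removes activating phosphates from p53 and from the kinases upstream of it. MicroRNAs of the miR-29 family have been linked to this pathway before. In human cancer cells they were described to raise p53 through the PI3-kinase subunit gene PIK3R1 and the small GTPase gene CDC42, and in mouse cells Ppm1d was described as a miR-29 target.

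The mature sequences of the mouse miR-29 family are shown because these were the molecules whose human precursors were added, and because the seed decides which messenger RNAs they pair with. They are RefSeq sequences on build GRCm38.p6, written 5′ to 3′, with the seed (bases 2 to 8) in capitals. The sequence of miR-29b is encoded both on chromosome 6 and on chromosome 1.
miR-29a-3p (chr6:31062673-31062694, minus strand): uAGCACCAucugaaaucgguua
miR-29b-3p (chr6:31063025-31063047, minus strand): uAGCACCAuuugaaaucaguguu
miR-29c-3p (chr1:195037600-195037621, plus strand): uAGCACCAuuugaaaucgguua
All 3 share the seed. Counted from 1 at the 5′ end, miR-29c differs from miR-29a by C10U, and miR-29b differs from miR-29a by C10U, G18A, U21G and A22U, with 1 extra base at its end.

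Values below are relative signals, the background-subtracted intensity of a probe divided by the 75th percentile of the non-control spots of its array, on a linear scale. Levels of different probes are not comparable. That percentile lay between 500.4 and 663 intensity units, the share of probes detected well above background ran from 61.9% to 66.8%, and 0 spots were saturated. All 3 miR-29 arrays shared slide 1 with control replicate 1, while the other 2 control arrays were on slide 2. Fold changes are log2 differences, miR-29 minus control, from limma, with standard errors (SE) and p-values adjusted by Benjamini-Hochberg over all 26427 probes tested, n = 3 per group, and a threshold of 0.05. Of all probes tested, 22.7% were lower and 35.3% higher, 58% in either direction, so a call is common in this comparison. Over the 19740 genes and transcripts, each taken by its probe with the highest mean, the shares were 22.8% lower and 35.3% higher, and the median log2 fold change was 0.068.

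In miR-29 astrocytes 6 of the 10 genes were lower (Btg2, Zmat3, Ppm1d, Perp, Mdm2 and Fas), 2 were higher (Ccng1 and Trp53inp1), and Sesn1 and Phlda3 did not pass the test. The groups did not overlap for 8 of the 10 genes and 14 of the 19 probes, against 66.2% of all genes and 66.1% of all probes. A fall of at least 2-fold was found for 2 of the 10 genes, Btg2 and Zmat3 (3.65% of all genes), and a rise of that size for none (3.29% of all genes). By probe, 11 fell, 4 rose and 4 did not pass, and no gene had probes called in opposite directions. Relative to their own controls the falls ran from 18.8% for the brighter Fas probe to 71.3% for the dimmer one, and the rises from 15.7% to 53.5%. The median log2 fold change of the 10 genes was -0.39. The 6 falls kept their direction and call with their highest-mean probe under every alternative processing tried, whereas both rises lost their call when the arrays were scaled to the spike-in controls. Slide 2 held only control arrays, so the slide block and the fit within slide 1 gave the same log2 fold changes. Those estimates rest on control replicate 1 as the only control array.

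**Figure D1:**
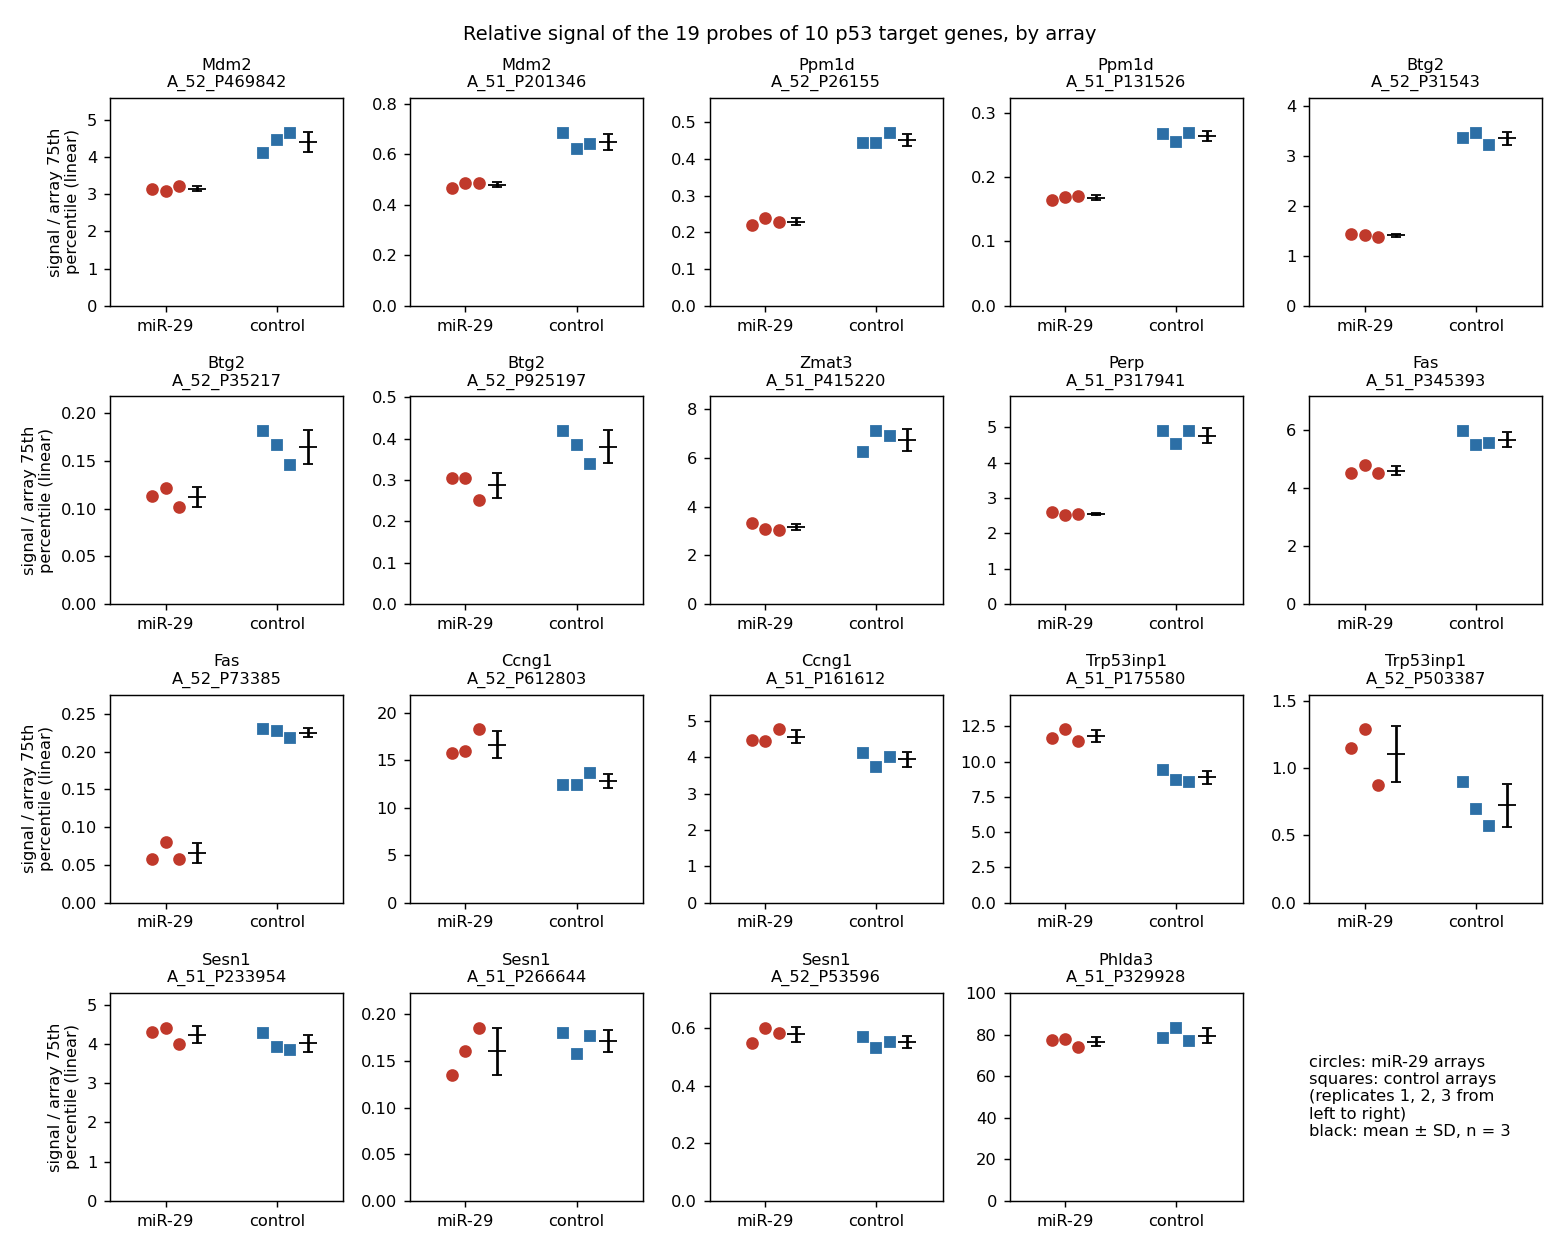
Relative signal (linear, in multiples of the 75th percentile of the array) of the 19 probes of the 10 genes on each array, with 1 panel per probe, miR-29 arrays as circles on the left, control arrays as squares on the right, and the mean ± SD (n = 3) in black. The groups are apart for all probes of Mdm2, Ppm1d, Btg2, Zmat3, Perp, Fas and Ccng1, and overlap for 1 Trp53inp1 probe and for all probes of Sesn1 and Phlda3.

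Ppm1d and Mdm2, the feedback inhibitors of p53 described above, both fell. Ppm1d had relative signals of 0.220, 0.239 and 0.227 on the miR-29 arrays, against 0.443, 0.442 and 0.472 on the control arrays (probe A_52_P26155). Every miR-29 array lay below every control array. The log2 fold change was -0.99 (SE 0.0565, 95% confidence interval -1.12 to -0.85, adjusted p = 7.24e-05 in limma), a fall of 49.5%. The other Ppm1d probe, A_51_P131526, gave 0.164, 0.169 and 0.171 in miR-29 cells, against 0.267, 0.254 and 0.269 in control cells. Its log2 fold change was -0.65 (SE 0.0492, adjusted p = 0.000168), again without overlap. With normexp background correction both falls were smaller (-0.69 and -0.42).

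Mdm2 fell less than Ppm1d but by nearly the same amount with both of its probes. With A_52_P469842 it had 3.14, 3.09 and 3.23 in miR-29 cells, against 4.12, 4.46 and 4.66 in control cells, a log2 fold change of -0.48 (SE 0.0616, interval -0.63 to -0.33, adjusted p = 0.00111). With A_51_P201346, a probe printed on 10 spots per array, it had 0.467, 0.485 and 0.487 in miR-29 cells, against 0.685, 0.622 and 0.639 in control cells (-0.43, SE 0.0564, adjusted p = 0.0012). The groups did not overlap with either probe. Mdm4, the relative of Mdm2 that holds p53 inactive without marking it for degradation, did not pass with its brightest probe (-0.09, adjusted p = 0.461). Without control replicate 1 that probe passed as lower (-0.19, adjusted p = 0.0297). Of the other Mdm4 probes 1 was lower (-0.36, adjusted p = 0.0284), which a block for slide ended (adjusted p = 0.204), and 1 did not pass (0.28, adjusted p = 0.296).

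Btg2, an antiproliferative protein that recruits the deadenylase complex that shortens poly(A) tails, showed the deepest fall of a gene by its highest-mean probe. That probe, A_52_P31543, had 1.43, 1.43 and 1.38 in miR-29 cells, against 3.36, 3.47 and 3.22 in control cells. The log2 fold change was -1.25 (SE 0.0508, interval -1.37 to -1.12, adjusted p = 3.67e-05), and 2.28% of all genes tested had a lower one. Both dimmer probes of Btg2 fell by less, with log2 fold changes of -0.41 (A_52_P925197, SE 0.112, adjusted p = 0.0217) and -0.55 (A_52_P35217, SE 0.105, adjusted p = 0.00528). The call of A_52_P925197 was lost without miR-29 replicate 3 (-0.31, adjusted p = 0.0515), without control replicate 2 (-0.40, adjusted p = 0.0601) and with no filter on dim probes (adjusted p = 0.0519). Its relatives did not follow it: Btg1 was higher by 0.30 and 0.44 with its probes (adjusted p = 0.0121 and 0.00119), and Btg3 by 0.34 (adjusted p = 0.00112). The brighter Btg1 probe did not pass with slide as a block (0.16, adjusted p = 0.059).

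Zmat3, a zinc finger protein that binds RNA and was first named Wig1 as a p53-induced gene, was measured by 1 probe. It had 3.31, 3.1 and 3.06 in miR-29 cells, against 6.22, 7.1 and 6.87 in control cells. Every miR-29 array lay below the lowest control array, and the log2 fold change was -1.09 (SE 0.0687, interval -1.26 to -0.92, adjusted p = 9.37e-05). Against the control array of the same slide it was -0.98.

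Perp and Fas are membrane proteins. Perp, a tetraspan protein of desmosomes that also takes part in p53-dependent death, had 2.59, 2.52 and 2.54 in miR-29 cells, against 4.89, 4.52 and 4.90 in control cells. Its log2 fold change was -0.90 (SE 0.0535, interval -1.03 to -0.77, adjusted p = 7.93e-05), with no overlap between the groups. Fas, the death receptor of the TNF receptor superfamily, had 4.50, 4.79 and 4.51 in miR-29 cells, against 5.96, 5.47 and 5.57 in control cells, with the probe for NM_007987 (-0.30, SE 0.0574, interval -0.44 to -0.16, adjusted p = 0.00552).

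The other Fas probe, assigned to the transcript accession NM_001146708, gave a much larger fall. It had 0.0581, 0.0805 and 0.0575 in miR-29 cells, against 0.230, 0.228 and 0.218 in control cells (-1.80, SE 0.137, interval -2.14 to -1.47, adjusted p = 0.000167). The probe was well above background on all 6 arrays, but its log2 fold change was -0.93 with normexp background correction. The range between the Fas probes, 1.5 on the log2 scale, was exceeded by 1.28% of the 4995 genes with more than 1 tested probe, whose median range was 0.218. No array had a Fasl probe, for the Fas ligand, well above background. Downstream of Fas, the adaptor gene Fadd fell by 0.41 (SE 0.0563, adjusted p = 0.0015).

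**Figure D2:**
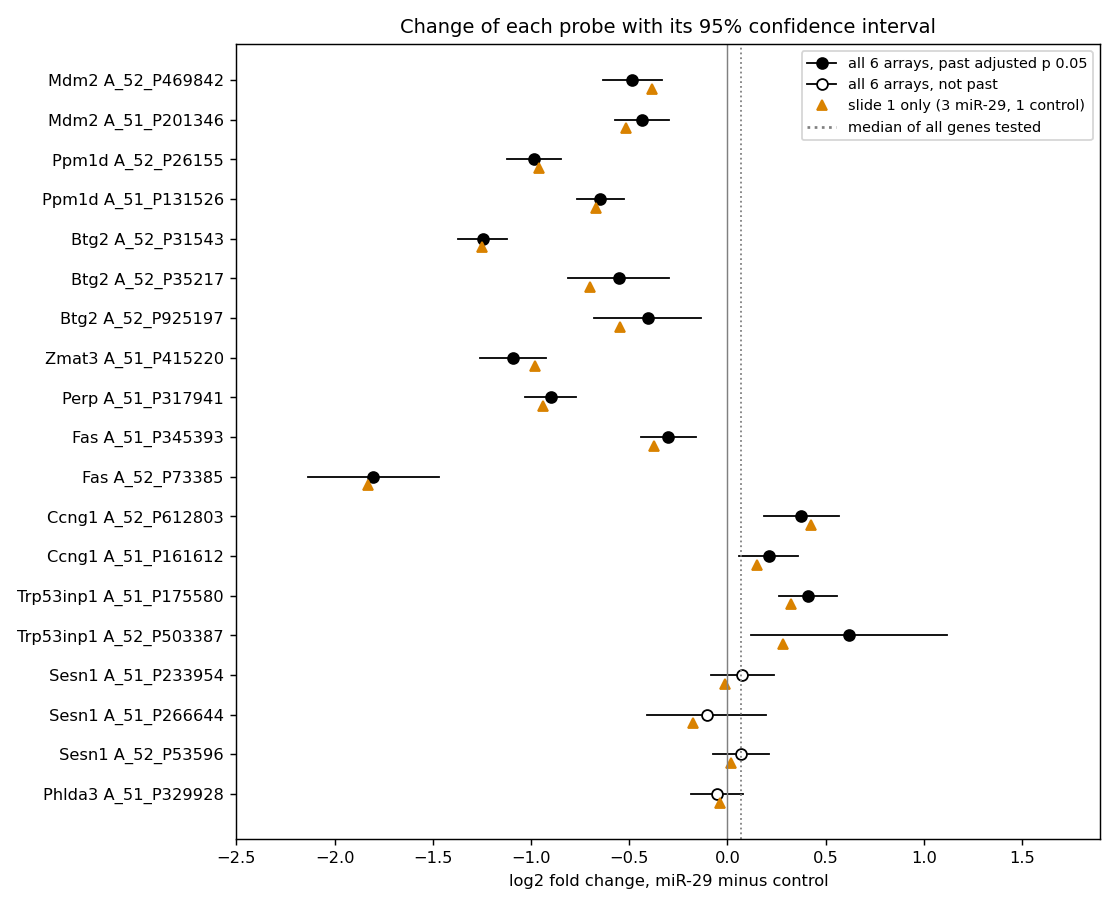
Log2 fold change (miR-29 minus control, x axis) of each probe with its 95% confidence interval from all 6 arrays, filled where the adjusted p is under 0.05, and as triangles the value against the only control array on slide 1. The falls lie on the same side of 0 in both, and the widest intervals belong to the dimmer probes of Fas and Btg2, to A_51_P266644 of Sesn1 and to A_52_P503387 of Trp53inp1.

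Ccng1 and Trp53inp1 were higher, by small amounts that depended on the scaling. Ccng1 encodes cyclin G1, which binds protein phosphatase 2A and takes part in the Mdm2 loop. Its probe A_52_P612803 had 15.7, 15.9 and 18.2 in miR-29 cells, against 12.4, 12.4 and 13.6 in control cells, without overlap (0.38, SE 0.0792, interval 0.18 to 0.57, adjusted p = 0.00792). The log2 fold change was 0.13 (adjusted p = 0.374) with scaling to the detected spike-in types. The other probe, A_51_P161612, had 0.21 (SE 0.0609, adjusted p = 0.0262), turned to -0.041 with that scaling, and lost its call under 13 other alternatives, each single array other than control replicate 1 among those left out. The log2 fold change of its relative Ccng2 was -0.34 (SE 0.0537, adjusted p = 0.00265).

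Trp53inp1, a stress-induced protein of autophagy and p53 phosphorylation, had 11.7, 12.3 and 11.4 in miR-29 cells, against 9.42, 8.73 and 8.53 in control cells, with probe A_51_P175580. The groups did not overlap and the log2 fold change was 0.41 (SE 0.0603, interval 0.26 to 0.56, adjusted p = 0.00193), or 0.16 (adjusted p = 0.0906) with spike-in scaling. The dimmer probe A_52_P503387 had 1.14, 1.29 and 0.875 in miR-29 cells, against 0.894, 0.697 and 0.572 in control cells, so its groups overlapped. Its log2 fold change of 0.62 (SE 0.205, adjusted p = 0.0415) was 0.28 within slide 1, and a block for slide ended its call (adjusted p = 0.367). It also lost it without miR-29 replicate 1 or 2 and without control replicate 2 or 3 (adjusted p = 0.108, 0.123, 0.0959 and 0.110). Its relative Trp53inp2 moved the other way, falling by 0.73 (SE 0.0457, adjusted p = 9.1e-05), with 8.53, 8.86 and 8.54 in miR-29 cells, against 14.6, 14.2 and 14.4 in control cells.

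Sesn1 and Phlda3 did not pass the test. Sesn1 encodes sestrin 1, which restrains the growth kinase mTORC1 when amino acids are scarce. Its highest-mean probe, A_51_P233954, had 4.30, 4.42 and 4.00 in miR-29 cells, against 4.27, 3.93 and 3.85 in control cells, and the groups overlapped. The log2 fold change was 0.076 (interval -0.08 to 0.24, adjusted p = 0.351), and the other probes gave 0.070 (adjusted p = 0.334) and -0.10 (interval -0.41 to 0.20, adjusted p = 0.492). The relatives Sesn2 and Sesn3 had -0.06 (adjusted p = 0.714) and 0.23 (adjusted p = 0.028), and Sesn3 turned to -0.024 with spike-in scaling. The call of Sesn3 also ended without any single array other than control replicates 1 and 2 (adjusted p = 0.0599 to 0.0894) and with the replicate number as a block (adjusted p = 0.0524). It ended too with the deposited table and with no filter on dim probes (adjusted p = 0.083 and 0.0697).

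Phlda3, a pleckstrin homology domain protein that competes with the kinase Akt for membrane lipids, had 77.6, 78.3 and 74.4 in miR-29 cells, against 78.7, 83.5 and 76.9 in control cells. The groups overlapped and the log2 fold change was -0.054 (interval -0.19 to 0.08, adjusted p = 0.419). With quantile normalization and with scaling to the detected or to all spike-in types it passed as lower (-0.18, -0.30 and -0.25, adjusted p = 0.0192, 0.0101 and 0.0252). Its relative Phlda1 was higher by 0.38 (adjusted p = 0.00808), or 0.28 with slide as a block (adjusted p = 0.0724). Phlda2, named here after its values were seen, was lower (-0.62, adjusted p = 0.0444), with overlapping groups and a call that ended with slide as a block (-0.45, adjusted p = 0.278). Only 1 of the 3 miR-29 arrays detected it well above background.

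**Figure D3:**
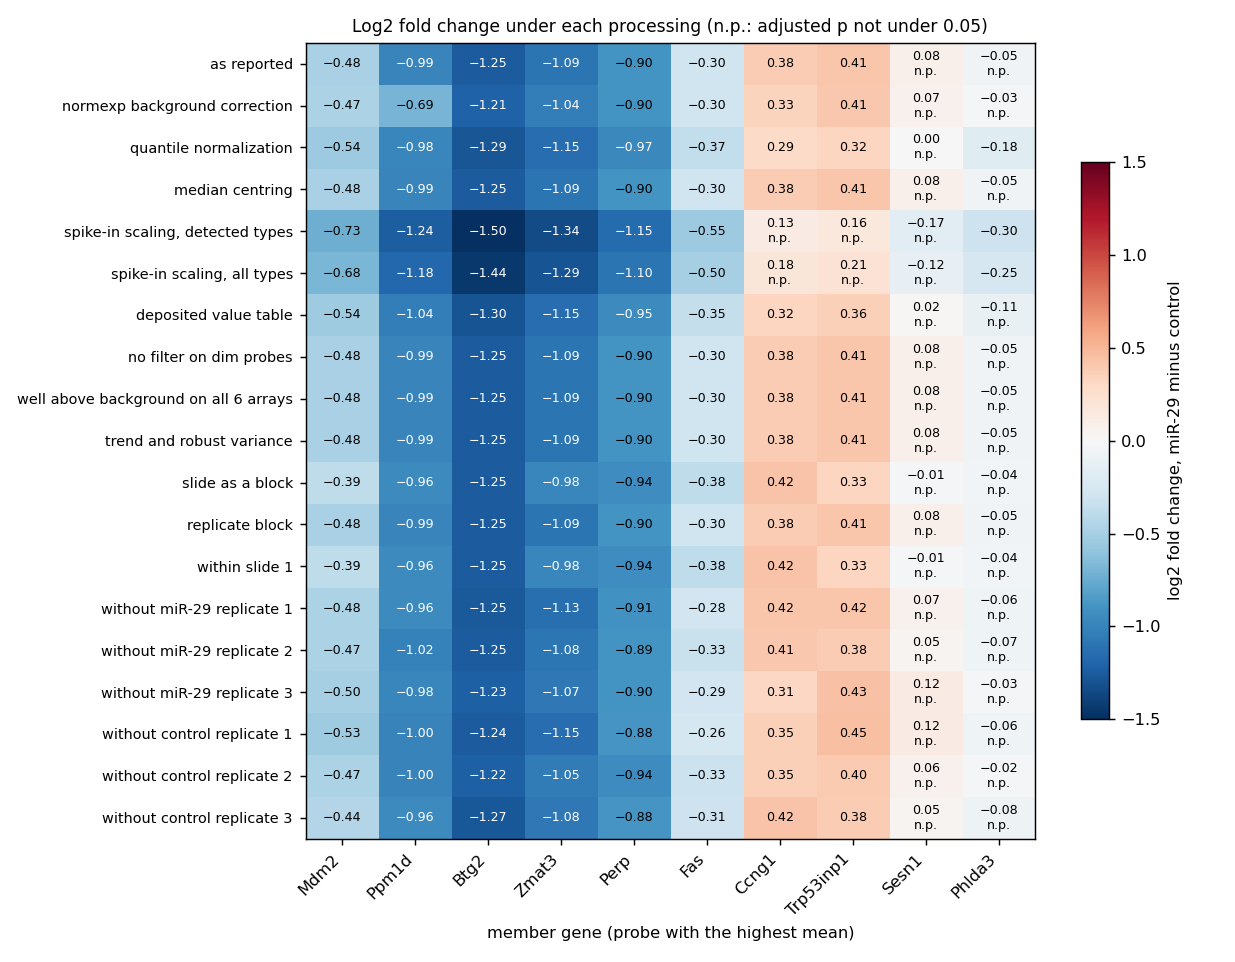
Log2 fold change (colour and number, miR-29 minus control) of each of the 10 genes by its highest-mean probe (columns) under each processing (rows), with n.p. where the adjusted p was not under 0.05. Mdm2, Ppm1d, Btg2, Zmat3, Perp and Fas are lower and past the threshold in every row, and Ccng1 and Trp53inp1 are not past it in the rows scaled to spike-in controls.

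Promoters were searched for the p53 response element because the 10 genes were chosen as targets of that factor. RefSeq windows from 250 bases before to 50 after the gene start (GRCm38.p6) were found for 7 of the 10 genes. None held a full response element, defined as adjoining decamers with intact cores and at most 2 mismatches elsewhere, and 0.189% of the 27025 genes in the table did. At so low a share, finding none among 7 genes cannot tell them from other genes. Elements with bases between the decamers, or outside these windows, were not searched for. A single p53 decamer without mismatch, which reads as the same motif on both strands, was present in 4 of the 7 genes and in 9.55% of all genes. These decamers are printed in capitals with 5 flanking bases on each side, on the strand of the gene.
Ccng1 (chr11:40755462-40755471, minus strand): tgcccGGGCAAGCCTtggca
Mdm2 (chr10:117710935-117710944, minus strand): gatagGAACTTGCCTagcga
Ppm1d (chr11:85311122-85311131, plus strand): ggggcGAGCTTGCTCttctt
Sesn1 (chr10:41887266-41887275, plus strand): ccttcAAGCTTGTTTttgct
They begin 185, 186, 132 and 173 bases before the gene start. Of these genes Ccng1 was higher, Mdm2 and Ppm1d were lower and Sesn1 did not pass, so the decamer was found with every outcome. A match is a description of the letters and says nothing about binding.

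Other p53 targets with roles in arrest, repair and metabolism were spread over both directions. Among the 21 tested, 10 fell, 7 rose and 4 did not pass, and their median was -0.087 on the log2 scale, against 0.068 for all genes. Their log2 fold changes ran from -1.42 to 0.70, and the 4 largest changes, of Eda2r, Dram1, Ei24 and Cdkn1a, were all falls. The largest rises were those of Rrm2b, Fdxr and Tigar, named here after their values were seen (0.70, 0.66 and 0.61 with the highest-mean probe, adjusted p = 0.000617, 0.000278 and 0.000991). Cdkn1a, the inhibitor of cyclin-dependent kinases best known as p21, had 3.37, 3.31 and 3.09 in miR-29 cells, against 7.16, 6.45 and 6.40 in control cells (-1.03, SE 0.0669, adjusted p = 0.000101). The ectodysplasin receptor gene Eda2r fell by 1.42, the autophagy gene Dram1 by 1.31, the endoplasmic reticulum gene Ei24 by 1.29 and the DNA damage gene Gadd45a by 0.56 (adjusted p = 6.79e-05, 2.84e-05, 5.23e-05 and 0.00167). Cdkn1a, Dram1, Ei24 and Gadd45a had 1 probe each, and the other tested Eda2r probe gave -0.57 (adjusted p = 0.00153). Scaling to the detected spike-in types gave 13 lower and 3 higher of the 21, against 7621 lower and 2983 higher of all 19740 genes and transcripts.

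Among 9 further p53 targets that act in cell death, 3 fell and 3 rose (median 0.14), and 5 rose without control replicate 1. Pmaip1, which encodes the pro-apoptotic protein Noxa, had 6.82, 6.34 and 6.71 in miR-29 cells, against 2.09, 2.17 and 2.12 in control cells (1.64, SE 0.0516, adjusted p = 2.46e-05). The BH3-only gene Bid was higher by 0.51, and the apoptosome gene Apaf1 and the gene Siva1 fell by 0.92 and 0.52 (adjusted p = 0.00167, 4.89e-05 and 0.000449). The other Apaf1 probes gave -0.70 (adjusted p = 0.00253) and 0.033 (adjusted p = 0.7). Pidd1, named here after its values were seen, did not pass with its highest-mean probe (-0.48, adjusted p = 0.245), which had 0.23 within slide 1. Its other probes were higher (0.52 and 1.01, adjusted p = 0.000935 and 4.89e-05), which the counts by highest-mean probe leave out. Bax fell by 0.23 (adjusted p = 0.0434), a call lost without any single array other than control replicate 3 (-0.16 to -0.25). The Bax call was also lost with median centring and with no filter on dim probes (adjusted p = 0.113 and 0.0967). Bbc3, encoding Puma, had 0.14 (adjusted p = 0.135), or -0.11 with spike-in scaling and 0.19 without control replicate 1 (adjusted p = 0.0404).

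Of 19 tested genes of the p53 network itself (p53 and its relatives, damage kinases, regulators and the described miR-29 routes) 5 were lower, 9 were higher and 5 did not pass. Scaling to the detected spike-in types gave 5 lower and 2 higher ones. The highest-mean probe of Trp53 had 2.18, 2.23 and 2.22 in miR-29 cells, against 2.55, 5.01 and 4.68 in control cells. Control replicate 1, on the slide of the miR-29 arrays, lay near them, and both control arrays of slide 2 lay higher. Its log2 fold change of -0.82 (adjusted p = 0.0329) was -0.20 within slide 1, and its call ended with a block for slide (adjusted p = 0.053) and without any single array other than control replicate 1 (-0.64 to -0.83). That call also ended with no filter on dim probes and with the alternative variance rule (adjusted p = 0.0705 and 0.055), and with the mean of all kept probes (-0.36, adjusted p = 0.0529). The other Trp53 probe did not pass (0.11, adjusted p = 0.187). The relative Trp73 fell by 2.11 (adjusted p = 0.00298), with the same split of the control arrays and -1.26 within slide 1. Cdkn2a, whose ARF product blocks Mdm2, fell by 0.72 (adjusted p = 0.000272), and the checkpoint kinase gene Chek1 by 0.59 (adjusted p = 0.00677), which did not pass within slide 1 (adjusted p = 0.0768).

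The genes of the described miR-29 routes to p53 went apart. Cdc42 fell with all 3 of its probes, by 0.50, 0.28 and 0.27 on the log2 scale (adjusted p = 0.000291, 0.00525 and 0.0217). Its brightest probe had 20.6, 20.3 and 21.0 in miR-29 cells, against 29.3, 28.9 and 29.7 in control cells. Pik3r1 was higher with 3 of its 4 probes (0.46, 0.22 and 0.58, adjusted p = 0.00203, 0.0234 and 0.0106) and did not pass with the other (-0.087, adjusted p = 0.308). With slide as a block the calls of the probes at 0.22 and 0.58 ended (0.13 and 0.52, adjusted p = 0.172 and 0.083). With scaling to the detected spike-in types the highest-mean Pik3r1 probe had 0.21 and did not pass (adjusted p = 0.0651).

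**Figure D4:**
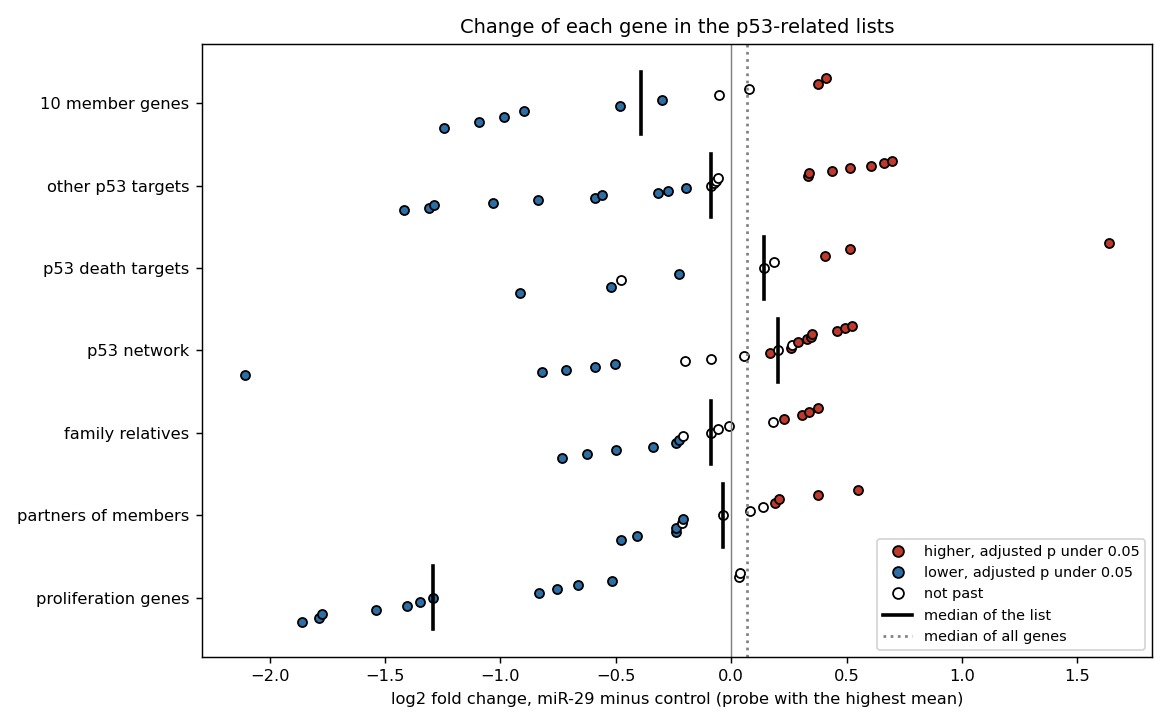
Log2 fold change (x axis, miR-29 minus control, highest-mean probe) of each gene in 7 lists (rows), red where higher and blue where lower with adjusted p under 0.05, open where not past, with the median of the list as a black bar and of all genes as a dotted line. The 10 genes have a median of -0.39, the other p53 targets of -0.09, and the proliferation genes of -1.29.

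Relatives of the 10 genes by protein family numbered 15, of which 6 were lower and 4 higher (median -0.089). With slide as a block 2 were higher, and scaling to the detected spike-in types gave 8 lower and 0 higher. Tnfrsf1a, a receptor of the same family as Fas, was lower by 0.50 (adjusted p = 0.00107). Of 13 tested partners 5 were lower and 4 higher (median -0.038). The lower count moved to 3 without miR-29 replicate 1 or 2, with median centring and with no filter on dim probes. The higher count moved to 2 without miR-29 replicate 2 or 3 or control replicate 3, with median centring, with no filter and with the deposited table. It moved to 1 with spike-in scaling. Among the partners the stress kinase gene Mapk14, a substrate of the Ppm1d phosphatase, fell by 0.48 (adjusted p = 0.00066). The methyltransferase gene Prmt1, a partner of Btg2, was higher by 0.55 (adjusted p = 0.000595). The GATOR1 subunit gene Nprl3 was higher by 0.38 (adjusted p = 0.00323). The calls of Nprl3, Phlda1, Btg1 and Btg3 were lost with scaling to the detected spike-in types.

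Proliferation genes moved with the falls. Of 13 tested 11 were lower and 0 higher (median -1.29). Their summed relative signal ran from 18.9 to 20.5 on the miR-29 arrays, against 25.9 to 28 on the control arrays. Such a sum weighs bright probes most. The brightest here, of Pcna, had means of 12.5 in miR-29 and 12.2 in control cells and did not pass (0.034, adjusted p = 0.739). The S-phase and mitotic genes Ccna2, Cdc6, Aurkb and Ccne2 fell by 1.86, 1.79, 1.77 and 1.54 (adjusted p = 2.86e-05, 5.48e-05, 0.000186 and 0.000143). Their part in the falls of the 10 genes was not tested.

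All 9 astrocyte markers examined were detected, of which 5 were higher and 1 lower, with summed relative signals of 85.6 to 94.5 in miR-29 cells, against 57.5 to 61.3 in control cells. Of 8 fibroblast and mural cell markers 6 were higher and 1 lower (547.7 to 593.8, against 343.3 to 384.9). Bright probes weigh most in all these sums, here Acta2 (means of 243.1 in miR-29 and 158.6 in control cells) and Tagln (167.4 and 104.7). Of 7 microglia markers 4 were tested, 3 lower and 1 higher (13.4 to 14.0, against 17.1 to 18.0), and Aif1, Cx3cr1 and Itgam were not well above background on all arrays of either group. Of 8 tested oligodendrocyte lineage markers 3 were lower and 4 higher (2.87 to 2.95, against 3.05 to 3.05). Of 8 tested neuron markers 3 were lower and 3 higher (6.79 to 6.98, against 8.37 to 8.94). Of 4 tested endothelial markers 1 was lower and 2 higher (1.77 to 1.9, against 2.07 to 2.45). The part of these cells in the changes of the 10 genes was not tested.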

How the data were processed

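Per the file headers, intensity was extracted by the authors with Agilent Feature Extraction 10.7.3.1 (version 10.7 per the submitters' processing notes) from one-colour arrays of a design annotated on mm9; the processed signal is background-subtracted. The deposited value table holds that intensity times 1 factor per array (2.63 to 3.43), linear and not centred, with column medians of 149.3, 155.4 and 148.8 (miR-29) and 146.3, 164.8 and 162.2 (control). The origin of this factor was not stated.

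Processed signals (minimum 1) were put on the log2 scale, minus the 75th percentile of the array. Outlier spots were left out and spots of a probe averaged. A probe was tested if all 3 arrays of a group had it well above background (26427 of 41174), using limma 3.58.1 (lmFit, eBayes) under R 4.3.3. Unversioned RefSeq accessions were matched to the GRCm38.p6 gene table: 26933 probes matched 1 gene, 14241 none. The procedure was tested on simulated data. The alternatives were normexp (offset 50, on median signals because the files have no mean-signal column), other scalings, filters, variance and probe rules, the slide or replicate number as a block, and each array left out.

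The members and lists were chosen with earlier results of these data known. Beside the 10 genes, the text names from each list up to 4 genes past the threshold with the largest change and no overlap, and a fixed set whatever their values (Trp53, Mdm4, Cdkn1a, Gadd45a, Bax, Bbc3, Pik3r1, Cdc42, Sesn2, Sesn3, Ccng2, Trp53inp2, Btg1 and Fasl). Phlda2, Pidd1, Rrm2b, Fdxr, Tigar, Pcna, Acta2 and Tagln were named after their values were seen.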

Additional observations from a re-analysis of the deposited data

How the results depend on the processing

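With 3 arrays per group, precision over these extractions is limited by their number, and small log2 fold changes by the choice of scaling. Separate cultures are not mentioned, so the spread between cultures cannot be read from these arrays. The counts of 6 lower genes and 11 lower probes stayed within 1.5 times under every alternative (10 to 11 probes and 6 genes with an array left out). The counts of higher members did not: scaling to the detected or to all spike-in types left 0 genes and 0 probes higher, and 2 probes remained higher with the deposited table, with no filter, with the slide as a block and within slide 1 (2 to 4 with an array left out, 2 genes throughout). Scaling to the detected spike-in types shifted the all-gene median by -0.251 and gave 10163 lower and 3947 higher probes in all, against 5992 and 9335 (4337 higher with all types). Signs turned for values near 0: with the detected types Sesn1 (-0.17 and -0.18), the dimmer Ccng1 probe (-0.041), Bbc3 (-0.11) and Sesn3 (-0.024); with all types Sesn1 (-0.12 and -0.13) and Bbc3 (-0.056); with the slide as a block, and equally within slide 1, Sesn1 (-0.013), Mdm4 (0.12) and Sesn2 (0.21); and with single arrays left out the dimmest Sesn1 probe (-0.22 to 0.012) and Sesn2 (-0.19 to 0.042). The cause was not tested. Of 342 values of member probes under alternatives 301 kept direction and side of the threshold, 30 lost their call, 3 gained one and 8 turned. Correlations of deviations were 0.143, 0.0989 and 0.271 between arrays of the same replicate number, and -0.241 to 0.0311 between arrays of different numbers. Whether the replicate numbers pair the arrays was not tested. With the replicate block 6 genes were lower and 2 higher, as without it, and 6096 and 9431 probes were called in all.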

Other observations

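Probes of 1 gene were called in opposite directions in 4.50% of the 4995 genes with more than 1 tested probe, and in 0 of the 7 genes of this kind among the 10. Within those 7, the range between probes was 0.840 on the log2 scale for Btg2, larger than in all but 8.33% of genes, and 0.0495 for Mdm2, exceeded in 87.2% of them.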
